A study of Homo sapiens with 2 samples.

Results

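The promoters of the mitochondrial ribosome and of respiratory complex I were examined in untreated BEAS-2B (B2B) cells, a non-cancerous human bronchial epithelial line. The set held 124 of the 20007 protein-coding genes used. Members were chosen by symbol alone: MRPL and MRPS genes for the ribosome, NDUF genes for complex I and its numbered assembly factors. By symbol these were 49 proteins of the large ribosomal subunit, 29 of the small subunit, 7 core subunits of complex I, 31 accessory subunits and 8 assembly factors. Some symbols predate the structures: MRPS18A is now placed in the large ribosomal subunit, MRPS36 in the oxoglutarate dehydrogenase complex and NDUFA4 in complex IV, but each was kept in the class of its symbol. Accessibility was measured by ATAC-seq, in which Tn5 transposase cuts and tags open DNA, in 2 biological replicates of wild-type cells. No other cell line or treatment was analysed here, so the values describe a single untreated line and no test between groups was run.

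Mitochondria translate the few proteins encoded in their own DNA on a dedicated ribosome, whose RNA is mitochondrial but whose proteins are made in the cytosol from nuclear genes and imported. Complex I, the NADH dehydrogenase that opens the respiratory chain, joins mitochondrially encoded membrane subunits to nuclear encoded ones, and assembly factors help to build it without staying in the finished enzyme. The nuclear genes lie scattered over the genome. Their promoters are known as targets of factors such as NRF1, GABP of the ETS family and YY1.

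The lists held 28735 peaks in replicate 1 and 36162 in replicate 2 on chromosomes 1 to 22, X and Y. Read totals were not used here, but the fragments under each summit could be solved from the listed statistics. Their median was 35 in replicate 1 and 30 in replicate 2, and the weakest listed peaks had 16 and 13 fragments. The number a peak needs rises with the local background, so a promoter without a listed peak did not pass the caller and need not be closed. As a check of the label, marker genes were read at their own promoters. Of 12 epithelial markers KRT18 alone had a peak in each list, and the others, among them CDH1, EPCAM and KRT5, had a peak in neither. Of 12 mesenchymal markers 8 had a peak in each list, among them VIM, CDH2 and FN1, a share of 66.7% beside 52.3% of all protein-coding genes.

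To show the DNA in question, 8 stretches of the reference upstream of members are given, from the base next to the transcription start site (TSS) outwards, read 5′ to 3′ on the strand of the named gene (hg38). They end before any exon of a canonical transcript. Capitals mark letters of NRF1 (GCGCATGC), the ETS family (CCGGAAGT), YY1 (AAGATGGCG), the SP and KLF family (GGGGCGGGG) and the CCAAT box (CCAAT), on either strand, and the other motifs searched are not marked. MRPL50 and MRPS9, proteins of the large and the small subunit, had the highest mean fold enrichment of all members.
MRPL50, chr9:101398619-101398818, minus strand: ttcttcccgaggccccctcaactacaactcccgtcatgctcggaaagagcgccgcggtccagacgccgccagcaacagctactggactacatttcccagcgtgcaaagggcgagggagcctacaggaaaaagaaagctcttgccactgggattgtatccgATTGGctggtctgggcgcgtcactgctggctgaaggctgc
MRPS9, chr2:105037869-105038068, plus strand: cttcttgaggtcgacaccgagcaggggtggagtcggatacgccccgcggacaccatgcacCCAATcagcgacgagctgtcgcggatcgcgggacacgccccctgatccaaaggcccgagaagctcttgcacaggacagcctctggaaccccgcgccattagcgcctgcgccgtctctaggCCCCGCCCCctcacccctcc
Neither stretch held the NRF1, ETS or YY1 letters. The promoter window of MRPL50, from 250 bp before to 50 bp after the TSS, held YY1 letters outside the stretch. The stretch of MRPL50 held a CCAAT box whose first base lay 40 bases before the TSS. That of MRPS9 held a CCAAT box 140 bases and SP and KLF letters 20 bases before the TSS. The summit of MRPL50 lay inside the stretch in both replicates, 111 and 125 bp before the TSS, as did that of MRPS9, 61 and 87 bp before it.

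The next stretches lie between divergent genes. MRPL47 and NDUFB5, a protein of the large ribosomal subunit and an accessory subunit of the membrane arm of complex I, start 156 bp apart on opposite strands, so that 155 bases serve a member of each machinery. MRPL32 starts 202 bp from PSMA2, a proteasome subunit, and MRPS12, a protein of the ribosomal decoding centre, 181 bp from SARS2, the mitochondrial seryl-tRNA synthetase.
MRPL47 and NDUFB5, chr3:179604639-179604793, minus strand: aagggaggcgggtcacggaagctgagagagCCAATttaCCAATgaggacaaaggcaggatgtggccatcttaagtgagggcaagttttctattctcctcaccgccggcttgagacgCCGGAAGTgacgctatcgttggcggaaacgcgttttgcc
MRPL32, chr7:42932215-42932375, plus strand: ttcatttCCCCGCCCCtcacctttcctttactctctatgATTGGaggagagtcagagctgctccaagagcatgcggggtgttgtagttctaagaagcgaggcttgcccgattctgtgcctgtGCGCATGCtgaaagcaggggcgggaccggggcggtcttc
MRPS12, chr19:38930764-38930943, plus strand: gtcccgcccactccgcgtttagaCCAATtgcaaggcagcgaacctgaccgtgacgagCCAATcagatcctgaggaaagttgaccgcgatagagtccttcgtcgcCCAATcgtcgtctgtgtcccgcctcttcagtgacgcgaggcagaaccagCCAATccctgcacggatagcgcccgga
The stretch of MRPL47 and NDUFB5 held 2 CCAAT boxes and ETS letters 39 bases before the MRPL47 TSS. That of MRPL32 held the NRF1 letters 39 bases before the TSS, and that of MRPS12 held 4 CCAAT boxes, 157, 123, 76 and 27 bases before it.

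The last 3 stretches contrast core subunit NDUFS1, which carries iron-sulphur clusters of the matrix arm and had a wide peak in both replicates, with core subunit NDUFS7 and ribosomal protein MRPL52, which had none in either. The NDUFS1 peak also held the TSS of EEF1B2, on the opposite strand, in both replicates.
NDUFS1, chr2:206159445-206159644, minus strand: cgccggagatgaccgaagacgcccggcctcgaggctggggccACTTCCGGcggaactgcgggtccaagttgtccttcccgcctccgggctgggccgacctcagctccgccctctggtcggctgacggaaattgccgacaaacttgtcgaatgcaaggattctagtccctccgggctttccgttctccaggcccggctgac
NDUFS7, chr19:1383707-1383906, plus strand: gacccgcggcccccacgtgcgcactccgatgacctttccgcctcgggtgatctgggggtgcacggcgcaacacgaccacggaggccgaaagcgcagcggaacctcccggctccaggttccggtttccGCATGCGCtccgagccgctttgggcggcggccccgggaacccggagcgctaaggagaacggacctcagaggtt
MRPL52, chr14:22829687-22829886, plus strand: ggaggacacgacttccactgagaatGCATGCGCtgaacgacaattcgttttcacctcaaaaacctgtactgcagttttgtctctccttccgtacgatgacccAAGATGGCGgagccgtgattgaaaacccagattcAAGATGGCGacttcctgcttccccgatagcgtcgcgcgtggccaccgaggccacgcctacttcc
NDUFS1 held ETS letters 158 bases before the TSS. NDUFS7 held NRF1 letters 73 bases before it. MRPL52 held NRF1 letters 175 bases and YY1 letters 98 and 64 bases before it, and was the sole member with NRF1, ETS and YY1 letters all in its promoter window. The promoter windows of MRPL32 and NDUFS7 also held YY1 letters, outside their stretches. Such matches in the reference are no evidence of a bound factor.

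Most of these promoters were accessible. A peak within 1 kb of the TSS was listed for 95 members (76.6%) in replicate 1, beside 53.2% of all protein-coding genes, and for 108 (87.1%) in replicate 2, beside 58.0%. Both replicates had a peak at 92 members, or 74.2% (95% Wilson interval 65.8 to 81.1%, counting error only), beside 52.3% of all genes. A further 19 members had a peak in 1 replicate and 13 in neither.

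By machinery, 60 of the 78 ribosomal genes (76.9%) had a peak in both replicates, with 37 of 49 in the large and 23 of 29 in the small subunit. Of the 46 complex I genes 32 (69.6%) did, with 4 of 7 core subunits, 21 of 31 accessory subunits and 7 of 8 assembly factors. Among other large complexes of housekeeping function, 52 of 77 cytosolic ribosomal protein genes (67.5%) and 39 of 48 proteasome genes (81.2%) had a peak in both.

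**Figure D1:**
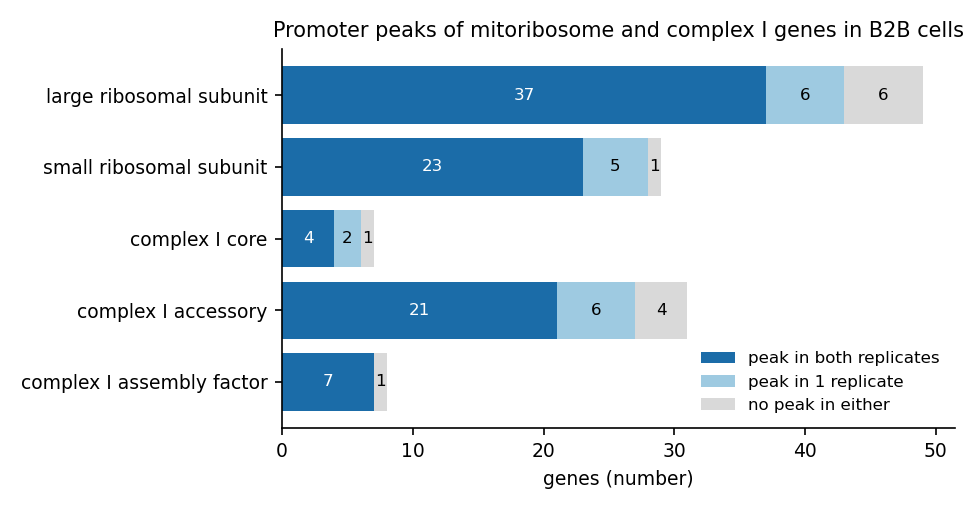
Number of genes of each class with a promoter peak in both replicates, in 1 replicate or in neither (bars, genes on the horizontal axis). In every class the genes with a peak in both replicates are the most frequent, from 4 of 7 core subunits to 37 of 49 proteins of the large ribosomal subunit.

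Promoters rich in CpG dinucleotides are often accessible, and the members had a median of 64.5 CpGs within 500 bp of the TSS, beside 66 for all genes. Their spread was narrower. No member fell in the quintile of all genes with the fewest CpGs (0 to 21), where only 4.33% had a peak in both replicates. In the next quintile (22 to 56 CpGs) 30 of 43 members (69.8%) had one, beside 39.5% of all genes, and in the middle quintile 41 of 50 (82.0%) beside 70.9%. In the upper 2 quintiles the order turned: 13 of 19 members (68.4%) beside 74.4%, and 8 of 12 (66.7%) beside 73.5%.

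**Figure D2:**
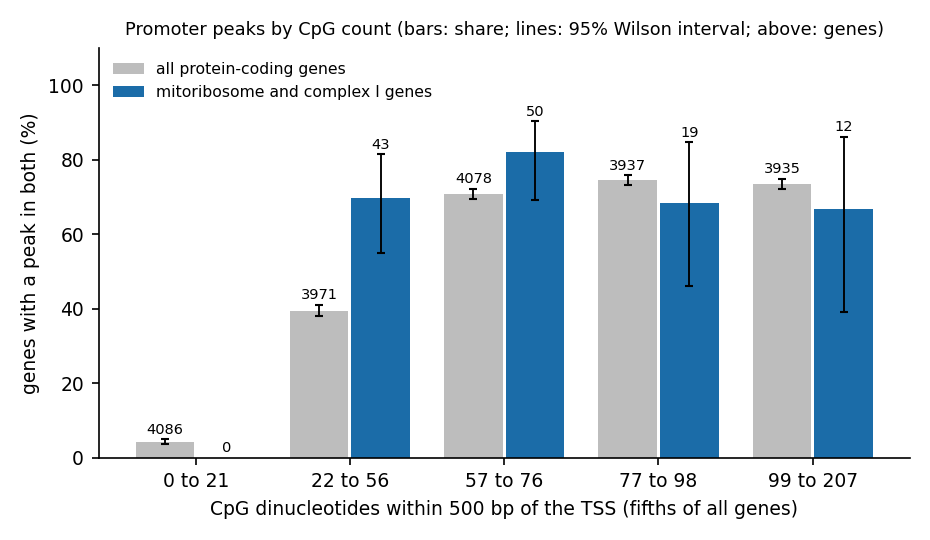
Share of genes with a promoter peak in both replicates (percent) in quintiles of all protein-coding genes by CpG count within 500 bp of the TSS, for all genes (grey) and for the mitoribosome and complex I genes (blue), with 95% Wilson intervals as lines and the number of genes above. The blue bar stands well above the grey one at 22 to 56 CpGs, 69.8% beside 39.5%, and a little below it in the 2 highest quintiles, where the intervals are wide.

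The peaks were, by their medians, slightly weaker than those of all genes. Fold enrichment is the number of fragments at the summit over the local background, each with 1 added. Its median over the members with a peak was 7.1 in replicate 1 and 8.55 in replicate 2 (7.83 ± 1.02, SD, n = 2), beside 7.97 and 9.06 for all genes. Of the members with a peak, 38 (40%) in replicate 1 and 44 (40.7%) in replicate 2 were above the median of all genes. In fragments at the summit, the members had a median of 41 and 37.5, beside 46 and 43.

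The classes ranked by their medians in much the same way in both replicates. The 7 assembly factors with a peak had the highest median, 11.1 in replicate 1 and 16 in replicate 2. The accessory subunits had 9.53 and 8.72, the small ribosomal subunit 7.62 and 9.97, the core subunits 6.76 and 8.38, and the large ribosomal subunit 6.41 and 8.11. The order of the accessory subunits and the small subunit turned between replicates, and so those classes cannot be ranked. The class with the highest median holds few genes.

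In the large ribosomal subunit, MRPL50 stood far above the rest, with a fold enrichment of 23.6 in replicate 1 and 24 in replicate 2 (23.8 ± 0.259). These came from 232 and 190 fragments, a percentile rank of 99.6 and 99.7 among all genes with a peak. In the small subunit MRPS9 had 26.5 and 19.9 (23.2 ± 4.64), from 185 and 115 fragments. The percentile ranks of MRPS9 were 99.9 and 97.8, so that both genes sat at the top of the lists although the median of the set did not.

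In complex I the highest mean was that of NDUFA2, an accessory subunit of the matrix arm, with 17.7 and 19.9 (18.8 ± 1.59). Among assembly factors NDUFAF8, a partner of NDUFAF5, had 19.7 and 16.8 (18.2 ± 2.07) and NDUFAF4, which works with NDUFAF3, had 17.1 and 19.0 (18.0 ± 1.35). These 3 did not differ beyond their spread, and in replicate 1 NDUFAF8 was above NDUFA2. The partners of the assembly factors were weaker. NDUFAF3 had 7.1 and 8.32 (7.71 ± 0.862) and NDUFAF5, which modifies NDUFS7, had 10.2 and 11.5 (10.9 ± 0.934). The peaks at partners in assembly thus differed by more than their replicates did. Those of NDUFAF8 and NDUFAF5 also held the TSSs of TEPSIN and ESF1, on the opposite strand, so their heights cannot be divided between the genes. NDUFAF7, a methyltransferase, was the weakest assembly factor with a peak, at 6.58 and 7.02, and NDUFAF1 had no peak.

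By the mean over both replicates, the 5 lowest members with a peak in both were ribosomal. In replicate 1 alone MRPL2 was lowest, at 3.47, and NDUFA1, an accessory subunit, had 3.98. MRPL13 had 3.98 and 4.53 (4.26 ± 0.386), from 22 and 19 fragments, and its strongest peaks in the 2 lists did not overlap. MRPS6 had 4.16 and 4.53 (4.34 ± 0.264), MRPS7 4.16 and 4.98 (4.57 ± 0.584) and MRPL14 4.85 and 4.53 (4.69 ± 0.226). These 4 had 19 to 27 fragments at the summit, not far above the weakest listed peaks. MRPL46, which shares its peaks with MRPS11, had 4.50 and 5.21 (4.86 ± 0.499), and again the strongest peaks did not overlap between the lists. MRPL13 had 2 peaks within 1 kb in replicate 1 and MRPL46 had 3 in replicate 2, of which only the strongest was compared.

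The core subunits carry the catalytic reaction. NDUFS1 had 13.1 and 14.1 (13.6 ± 0.695). Its peak also held the TSS of EEF1B2, 451 bp upstream, in both replicates, so that height cannot be divided between the genes. NDUFS8, which carries iron-sulphur clusters, had 6.76 and 8.38 (7.57 ± 1.15), and NDUFV2, which carries another, had 5.37 and 8.38 (6.88 ± 2.13). NDUFS1 was above NDUFS8 and NDUFV2 in both replicates, while NDUFS8 and NDUFV2 did not differ beyond their spread. NDUFV1, which binds NADH and flavin, had a peak of 6.80 in replicate 2 alone, and NDUFS3 a peak of 4.16 in replicate 1 alone. NDUFS7 had no peak, the nearest summits lying 23586 and 23591 bp downstream of its TSS.

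The MRPS18 paralogues, sister proteins that occupy different places in the ribosome, also differed. MRPS18C had 8.66 and 9.97 (9.32 ± 0.923), with a peak wide enough to hold the TSS of its head-to-head neighbour HELQ, a DNA helicase. MRPS18B had 7.28 and 8.15 (7.71 ± 0.619), with summits 404 and 312 bp upstream. MRPS18A had a peak in replicate 2 alone, at 4.08 and with 17 fragments.

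**Figure D3:**
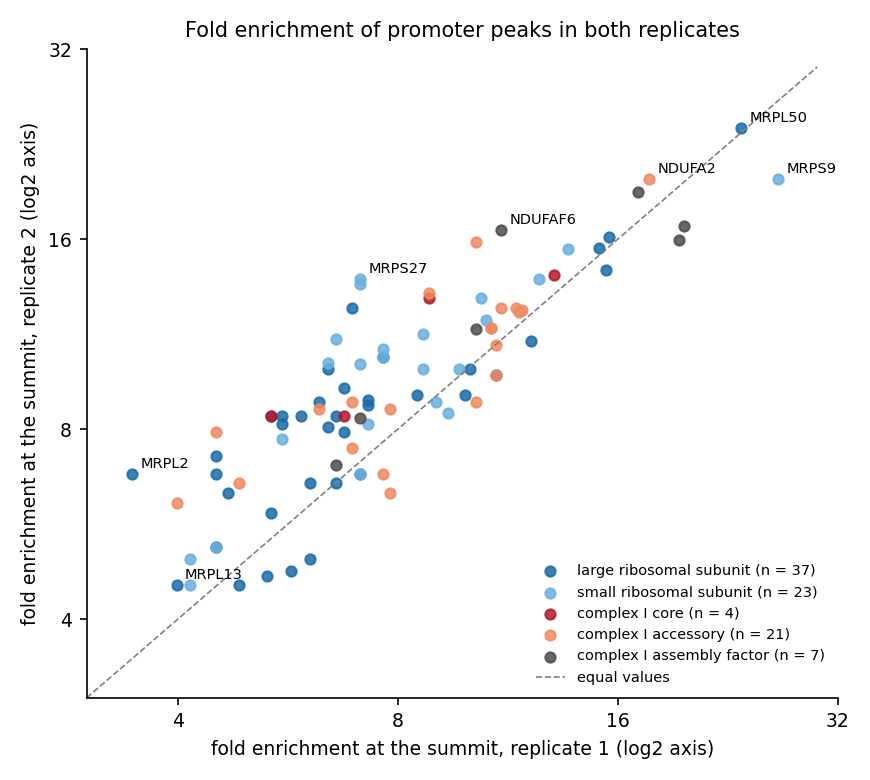
Fold enrichment at the summit of the promoter peak in replicate 1 (horizontal) against replicate 2 (vertical), both on log2 axes, for the 92 genes with a peak in both, coloured by class, with the dashed line at equal values. MRPL50 and MRPS9 sit at the upper end, and 70 of the 92 points (76.1%) lie above the line, beside 71.5% of all genes with a peak in both.

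The replicates ordered the members alike. Across the 92 genes with a peak in both, the 2 fold enrichments had a Spearman correlation of 0.844, beside 0.857 over all protein-coding genes with one. It is given as a description since the genes share both libraries. Fold enrichment was higher in replicate 2 for 70 of the 92 (76.1%), beside 71.5% of all genes with a peak in both. The number of fragments was higher there for 37 of the 92 (40.2%), beside 40.4% of all such genes. The background in the ratio was 4.77 fragments in replicate 1 and 3.41 in replicate 2 at most promoters, and this difference moves with that in fold enrichment, its part in which was not tested. No member differed by 2-fold or more. The largest ratios, as log2 of replicate 2 over replicate 1, were those of MRPL2 (0.97, from 3.47 to 6.80), MRPS27 (0.96, from 7.1 to 13.8), MRPS35 (0.94, from 7.1 to 13.6), MRPL24 (0.85, from 6.93 to 12.5) and NDUFA12 (0.82, from 4.50 to 7.93). All 5 were higher in replicate 2, and in fragments the same ratios were 0.61, 0.58, 0.56, 0.47 and 0.44.

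The 13 members without a peak in either list came from every class. They were MRPL20, MRPL21, MRPL23, MRPL33, MRPL35 and MRPL52 of the large subunit, MRPS21 of the small subunit, the core subunit NDUFS7, the accessory subunits NDUFA13, NDUFB8, NDUFS4 and NDUFS6, and the assembly factor NDUFAF1. None had a peak within 1 kb of any other annotated TSS in either list. The nearest summit anywhere lay between 1492 and 105162 bp away, with a median of 19066 bp over both lists. That nearest case was NDUFS6, an accessory subunit of the matrix arm on chromosome 5, whose closest summit was that of MRPL36, upstream of it. They held a median of 60 CpGs within 500 bp of the TSS, from 36 in NDUFS4 to 118 in MRPL23, beside 65.5 for the 92 members with a peak in both.

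Members with a peak in 1 list were weak there. The 3 seen in replicate 1 alone were MRPL45 (4.68), NDUFA7 (4.33) and NDUFS3 (4.16), with 23 to 26 fragments. The 16 seen in replicate 2 alone ran from 3.62 to 7.70, with a median of 5.55 beside 8.98 for the members with a peak in both. Of the large subunit these were MRPL4, MRPL11, MRPL27, MRPL28 and MRPL43, and by symbol of the small subunit MRPS10, MRPS15, MRPS16, MRPS18A and MRPS34. Of complex I they were NDUFA9, NDUFB7, NDUFB10, NDUFC2, NDUFS5 and NDUFV1. The highest was NDUFB7, with 7.70 and 33 fragments, and the lowest MRPL27, with 3.62 and 15. Replicate 2 had the longer list, and so the surplus of single peaks there moves with the number of peaks listed, whose part in it was not tested.

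By their medians the peaks were narrower than those of all genes. The median width over members was 409 bp in replicate 1 and 455.5 bp in replicate 2 (432 ± 32.9), beside 471 and 521 bp for all genes. The assembly factors had the widest, at 661 and 586 bp, and the large ribosomal subunit the narrowest, at 357 and 392 bp. The 3 widest by mean were those of complex I genes: NDUFA11 with 1041 and 1102 bp, NDUFB2 with 1042 and 1069 bp, both accessory subunits of the membrane arm, and NDUFS1 with 1085 and 924 bp. That of NDUFS1 also held the TSS of EEF1B2 in both replicates. The narrowest were the shared peaks of MRPL46 and MRPS11, at 217 and 148 bp, and those of MRPL53, at 231 and 147 bp.

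Summits lay just upstream of the TSS. The median position was 73 bp upstream in replicate 1 and 75 bp upstream in replicate 2, beside 72 and 71 bp for all genes. In replicate 1, 72 of 95 summits (75.8%) were within 150 bp of the TSS, beside 66.6% of all genes, and in replicate 2, 85 of 108 (78.7%) beside 65.8%. The 100 bp before the TSS alone held 45.3% and 52.8% of the members' summits, beside 38.5% and 36.3%. For 57 of the 92 members with a peak in both (62.0%), the summits of the replicates were at most 50 bp apart, beside 58.2% of all such genes. The peaks taken in the lists overlapped for 87 of the 92, beside 10041 of 10457 over all genes with a peak in both.

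**Figure D4:**
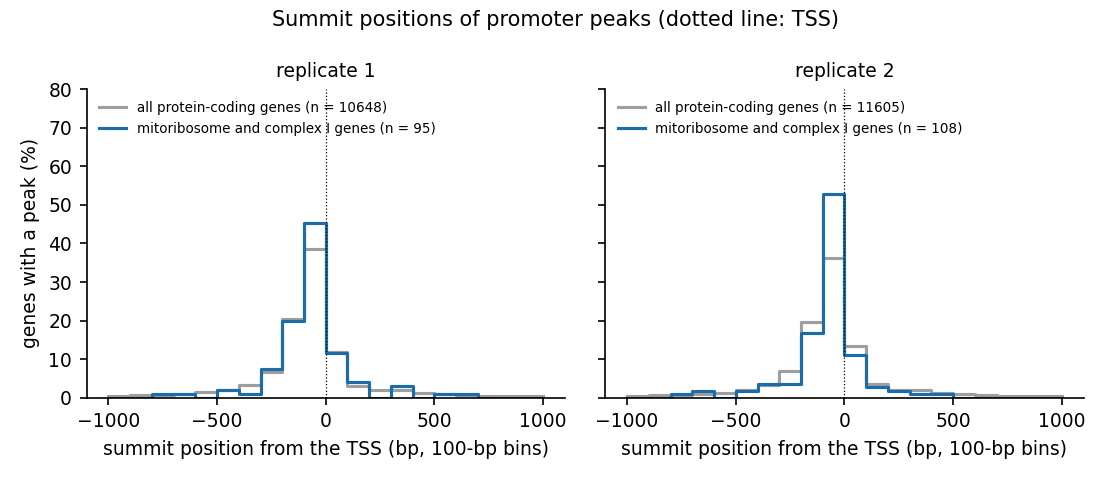
Share of genes (percent, of those with a peak) by position of the summit relative to the TSS in 100-bp bins, for each replicate, for all protein-coding genes (grey) and the mitoribosome and complex I genes (blue), with the dotted line at the TSS. The bin just upstream of the TSS is the highest for both, with 45.3% and 52.8% of the blue line in replicates 1 and 2.

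A few members had their strongest peak elsewhere in the window. The peak of NDUFC1, an accessory subunit of the membrane arm, lay downstream, with summits 1176 and 1154 bp past the TSS, beyond the start of NAA15 on the opposite strand, 972 bp downstream. That of NDUFA11 had its summit 746 bp upstream in both replicates. The strongest peak of MRPL51 had its summits 617 and 687 bp upstream. It held the TSS of NCAPD2, a condensin subunit starting 840 bp away, but not that of MRPL51. Another, weaker peak in each list had its summit 79 and 78 bp upstream of MRPL51. The summits of NDUFB11 were 460 and 391 bp upstream, in peaks that held the TSS of RBM10, and those of NDUFA4 were 382 and 408 bp upstream. The lists cannot assign such a peak to the member or to its neighbour.

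Many of the members start head to head with another gene. Of the 124, 45 (36.3%) had the TSS of another protein-coding gene on the opposite strand within 1 kb, beside 10% of all protein-coding genes, with a median gap of 197 bp. The partner lay upstream, so that the genes diverge, in 43 of the 45. In the large subunit these were 19 of 49 genes, in the small subunit 8 of 29, and in complex I 18 of 46. Of the members with a partner 37 of 45 (82.2%) had a peak in both replicates, beside 86.4% of all such genes. Of the members without one, 55 of 79 (69.6%) did, beside 48.5%. These shares were not tested against each other.

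Fold enrichment was alike with and without a partner. Members with one had a median of 7.1 in replicate 1 and 8.84 in replicate 2, and those without had 7.28 and 8.38, while all genes had 8.70 and 10.2 with a partner and 7.80 and 8.84 without. Among the 37 with a partner and a peak in both, the peak held the partner's TSS in both lists for 26, and in neither for 6. The strongest by mean were MRPL50 beside the zinc finger gene ZNF189 (233 bp between the starts), NDUFA2 beside the splicing factor IK (199 bp), NDUFAF8 beside TEPSIN (263 bp) and NDUFAF2 beside ERCC8 (135 bp), a gene of transcription-coupled repair. MRPL32 beside PSMA2 followed, with 15.4 and 14.3 (14.8 ± 0.811). NDUFAF2, an assembly factor related to NDUFA12, had 19.4 and 16 (17.7 ± 2.45). In each of these a single peak covers both starts, so its height cannot be divided between the genes.

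A few further pairs were picked after their values were seen. MRPS12 faced SARS2, with 9.01 and 8.84 (8.92 ± 0.123), and MRPS27 faced PTCD2, a mitochondrial RNA-binding protein. MRPL43 faced TWNK, the mitochondrial DNA helicase, and had a peak of 5.21 in replicate 2 alone. MRPL49 faced FAU, which encodes a cytosolic ribosomal protein, with 5.37 and 8.38 (6.88 ± 2.13), and NDUFA7 faced RPS28, another.

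In 2 cases the partner was itself a member. MRPL47 and NDUFB5 shared a peak of 10.9 and 9.74 (10.3 ± 0.829), whose summit lay between their starts, 86 and 99 bp from that of MRPL47 and 70 and 57 bp from that of NDUFB5. MRPL46 and MRPS11 start 320 bp apart on chromosome 15, and shared a weak peak as their strongest in each list, but these did not overlap between the lists. In replicate 1 the summit lay between the starts, and in replicate 2 it lay inside MRPL46 and past the TSS of MRPL46. Counted by peak rather than by gene, these 4 genes give 2 values in each replicate.

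**Figure D5:**
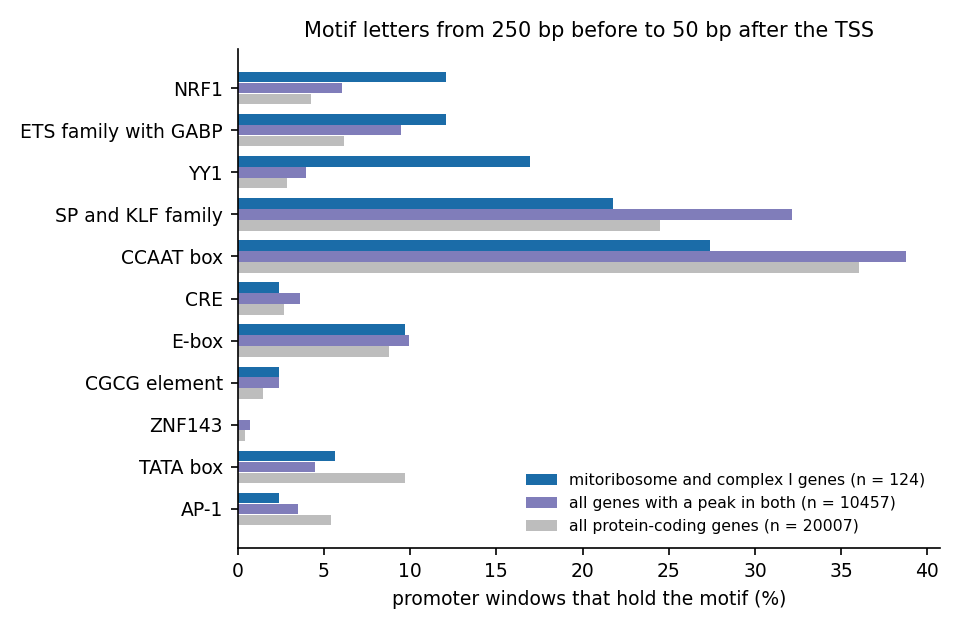
Share of promoter windows (percent, from 250 bp before to 50 bp after the TSS) that hold the letters of each motif on either strand, for the mitoribosome and complex I genes (blue), all genes with a peak in both replicates (purple) and all protein-coding genes (grey). The blue bars exceed the others for NRF1, the ETS family and YY1, at 12.1%, 12.1% and 16.9%, and fall below them for the CCAAT box, at 27.4%. Among members with a peak in both replicates the ETS share was 10.9%, near the purple bar at 9.50%.

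The windows from 250 bp before to 50 bp after the TSS differed from other promoters in the letters they held. The YY1 letters occurred in 21 members (16.9%), beside 2.84% of all protein-coding genes and 3.96% of those with a peak in both replicates. The NRF1 letters occurred in 15 (12.1%), beside 4.27% and 6.06%, and the ETS letters also in 15 (12.1%), beside 6.14% and 9.50%. At least 1 of the 3 was present in 43 members (34.7%) beside 12.3% of all genes, and at least 2 in 7 members (5.65%) beside 0.925%. Among genes with a peak in both replicates, members had at least 1 in 32.6% beside 18.1% of all such genes. At least 2 were in 5.43% of these members beside 1.38%. NRF1 letters were more frequent in complex I (8 of 46) than in the ribosome (7 of 78), and ETS letters the reverse (3 of 46 and 12 of 78), as counts with no test.

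The other motifs are given beside the share of all genes and that of the genes with a peak in both replicates. The SP and KLF letters were in 21.8% of members beside 24.5% and 32.1%, and the CCAAT box, short and thus frequent by its length, in 27.4% beside 36.1% and 38.8%. The E-box (CACGTG) was in 9.68% beside 8.76% and 9.95%, the CRE (TGACGTCA) in 2.42% beside 2.69% and 3.63%, and the CGCG element (CTCGCGAG) in 2.42% beside 1.46% and 2.38%. The TATA box (TATAAA) was in 5.65% beside 9.71% and 4.49%, and in 4.35% of the 92 members with a peak in both replicates. The AP-1 letters (TGANTCA) were in 2.42% beside 5.43% and 3.52%. The ZNF143 letters (ACTACAATT) were in 0 members, beside 0.45% and 0.689%.

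The NRF1, ETS and YY1 letters lay at different places. The middle of the NRF1 letters had a median position 55.5 bp before the TSS and that of the ETS letters 35 bp before it, whereas that of the YY1 letters was 15.5 bp after it. YY1 letters lay downstream of the TSS in 18 of 21 members, and on the strand of the gene in 19 of 21. These letters contain ATG, and in 16 of the 21 members that ATG was the annotated start codon, beside 263 of 568 for all genes with the letters. The letters are then both a YY1 match and the start of the reading frame, and a count of matches cannot separate these. Among members with a peak in both replicates the nearest NRF1 letters were a median of 49 and 63.5 bp from the summits, the ETS letters 47 and 63.5 bp, and the YY1 letters 143 bp in both.

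The letters were found with and without a peak. Of the members with NRF1 letters 12 of 15 had a peak in both replicates, with ETS letters 10 of 15 and with YY1 letters 13 of 21, beside 92 of 124 members in all. Over all protein-coding genes with the same letters, the shares were 74.2% for NRF1, 80.8% for ETS and 72.9% for YY1. Of the 13 members with no peak 7 held at least 1 of the 3, and MRPL52, shown above, held all of them. Members with NRF1 letters and a peak had a median fold enrichment of 10.2 and 12, beside 7.1 and 8.38 for those without. With ETS letters it was 9.27 and 9.29, beside 7.1 and 8.44, with YY1 letters 8.06 and 8.62, beside 7.1 and 8.5, and with the CCAAT box 9.53 and 9.97, beside 6.93 and 8.16. For NRF1 the values over all genes were 8.19 and 9.52 with the letters, and 7.97 and 9.06 without them. For ETS they were 8.14 and 9.52, beside 7.97 and 9.04, and for YY1 7.80 and 9.04, beside 7.97 and 9.06. For the CCAAT box they were 9.01 and 10.2, beside 7.45 and 8.45, so that difference was not particular to the members.

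Other genes of the same organelle were counted in the same way, from lists drawn up with earlier results known. The counts stand beside 52.3% of all protein-coding genes with a peak in both replicates, and several lists are short. Of 5 ribosomal proteins under other symbols 3 had a peak in both replicates (DAP3, PTCD3 and AURKAIP1), and of 10 further complex I assembly factors 8. Of 21 genes of mitochondrial ribosome assembly 18 did, and of 11 translation factors 9, with MTRF1L at 16 and 16.1. In the respiratory chain the counts were 4 of 4 genes of complex II, 9 of 9 of complex III, 7 of 10 of complex IV and 14 of 18 of the ATP synthase. Of 7 complex IV or related forms of muscle, testis or hypoxia 1 had a peak, COX6B2, in both replicates, with 4.33 and 4.30. Of 6 genes of mitochondrial transcription 5 did, with TFB1M, a mitochondrial rRNA methyltransferase, at 22.6 and 20.9. Of 10 genes of nuclear regulators 9 did, among them NRF1, with 5.89 and 9.29, and YY1, with 9.93 and 9.05, and PPARGC1A had a peak in replicate 2 alone, at 4.08.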

How the data were processed

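The data were 2 peak lists from ATAC-seq, 1 for each B2B replicate. Per the labels and the methods, alignment to hg38 used Bowtie2 2.4.4, duplicate reads were then taken out with code of the authors, and MACS2 2.2.7.1 called the peaks separately in each replicate without further removal of duplicates. The deposited fold enrichment is a linear ratio of summit fragments to local background, after 1 is added to either. Beside it, the authors' lists hold a −log10 p and a −log10 q, and a deposited score, 10 times the −log10 q, which was not used. Fragments were solved from the ratio and the −log10 p within a tolerance of 0.01, for 99.7% and 99.8% of the peaks.

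Promoters were 1 kb to either side of the canonical TSS in GENCODE 44, with an overlap of at least 1 bp, and the peak of highest fold enrichment was taken. Of 20033 protein-coding identifiers 26 repeated a symbol and were left out. Motifs were searched in the reference. Python 3.11.15, numpy 2.4.6, pandas 2.3.3, scipy 1.17.1, pysam 0.24.0 and matplotlib 3.10.9 were used. Overlaps, fragment counts and motif search were tested on simulated data. Depth limits detection, and Wilson intervals cover counting error only. The labels give no batch.

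The members and lists were chosen with earlier results of these data known. Named were members with no peak or a peak in 1 list, the 5 highest and 5 lowest by fold enrichment, the 5 largest ratios between replicates, the 3 widest and 3 narrowest, the 5 farthest summits, the core subunits, the MRPS18 paralogues, members that share a peak and the 5 strongest with a partner's TSS in the peak. Of these, 1 item is not reported here. Others named in the text were chosen after their values were seen. Alternatives were other thresholds, windows, TSSs, peak choices and motif windows, and each replicate alone.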

Additional observations from a re-analysis of the deposited data

How the results depend on the processing

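Of 70 values recomputed under alternative settings, 57 stayed within the replicate SD, the counting interval or 1.5 times the count, and 13 moved. A median from a single replicate always lies within the SD of both, so those values could not move and do not show stability. The number of members with a peak in both replicates ran from 88 to 93 under the other settings, and each replicate alone gave 95 to 108. With replicates left out, the median fold enrichment ran from 7.1 to 8.55, the median width from 409 to 455.5 bp and the median summit position from -75 to -73 bp. With the TSS of any transcript the summit position was -36.75 bp. The shares of motif windows changed with the window's length. Within 100 bp of the TSS they were 11.3% for SP and KLF, 14.5% for CCAAT, 3.23% for the E-box, 2.42% for TATA and 0.806% for AP-1. Within 500 bp they were 62.9% for CCAAT, 18.5% for the E-box, 21.0% for TATA and 11.3% for AP-1. Within 100 bp of the summits YY1 was at 6.46%, TATA at 1.98% and AP-1 at 0%. Members with a head-to-head partner numbered 36 within 500 bp and 57 with partners of any gene type. No paired analysis was possible because there is a single group. The weakest listed peaks had 16 fragments in replicate 1 and 13 in replicate 2, and an unlisted promoter cannot be told from a closed one.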
